A study of Homo sapiens with 9 samples.

Results

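A set of 10 genes that report on the Hippo effector YAP and on the actin cytoskeleton was followed across 3 culture conditions of a human embryonic stem cell line. They were ANKRD1, CCN1 and AMOTL2 (targets of YAP), THBS1 and TNC (matricellular proteins), and TAGLN, CNN1, TPM1, MYL9 and ACTA2 (actin cytoskeleton). The 10 symbols were looked up among the 40332 gene symbols of the count table. They were selected with their measured levels in these libraries known, the absence of counts in PXGL among them. Their differences from PXGL are therefore given as a description without a test. Of the 10 genes, 9 passed the filter on low counts, which kept 15179 genes in all, and ACTA2 did not.

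All 9 RNA-seq libraries came from wild-type cells of H1, an established line of human embryonic stem cells, with 3 libraries per condition. The first condition was PXGL, a naive-state medium that combines LIF with blockers of protein kinase C, tankyrase and MEK. The second was N2B27, the basal medium, and the third was N2B27 with 5 µM EPZ-6438 for 3 days, an inhibitor of EZH2, the methyltransferase of Polycomb repressive complex 2. The labels give no duration for the second condition, and time in N2B27 and the inhibitor cannot be told apart in the comparison of the latter conditions.

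YAP and its paralog TAZ are coactivators that the Hippo kinases keep in the cytoplasm. When spreading, matrix stiffness or low contact release them, they enter the nucleus and drive transcription through TEAD factors, with CCN1, CCN2, ANKRD1 and AMOTL2 among the classical targets. The parallel actin route runs through MRTF coactivators, which bind G-actin, and through SRF, which binds CArG boxes in front of contractile genes such as TAGLN, CNN1 and ACTA2. Human naive pluripotent cells grow as domed colonies, whereas cells that leave the naive state spread on their substrate.

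Library totals ran from 17499688 to 18358530 counts in PXGL, from 14482105 to 15295208 in N2B27 and from 14719626 to 16479602 with EPZ-6438. At these depths 3 counts, used as the floor, corresponded to 0.164 to 0.211 CPM (the count scaled to a common library size) in 1 library. PXGL replicate 1 stood apart from the other libraries of its group. Its chi-square per degree of freedom was 19.6 and 26.3 against replicates 2 and 3, which differed from each other by 3.41. The 7 pluripotency markers POU5F1, NANOG, SOX2, LIN28A, DPPA4, TDGF1 and SALL4 were present in every group. Their summed level was 3918 to 4259 CPM in PXGL, 5574 to 5685 CPM in N2B27 and 4543 to 4598 CPM with EPZ-6438. The 7 naive markers KLF17, DPPA5, DPPA3, ARGFX, DNMT3L, SUSD2 and KLF4 summed to 2616 to 3187, 2093 to 2118 and 2299 to 2384 CPM. Markers of the labelled cell type were thus present in all 3 conditions, and the N2B27 libraries still held naive marker RNA. Their levels were not constant. With EPZ-6438 against N2B27, edgeR called all 7 pluripotency markers lower, and 5 naive markers higher and 2 lower. Over all genes tested 14.2% were higher and 10.6% lower. From PXGL to N2B27, 4 pluripotency markers were called higher and 1 lower, and 0 naive markers higher and 3 lower. There 27.3% of genes tested were higher and 28.7% lower.

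The promoters are shown first because the TEAD factors through which YAP acts recognise a short motif that can be read in them. RefSeq promoters (GRCh38.p14, 250 bases before to 50 after a start) were at hand for 7 of the 10 genes: AMOTL2, TNC, ACTA2, ANKRD1, THBS1, TPM1 and CNN1. The TEAD motif GGAATG, or CATTCC on the other strand, was found in 4 of these 7 genes. Over all 27305 symbols of that table, 16.7% held it in at least 1 promoter. ANKRD1 had 2 sites, 220 and 128 bases before its start. THBS1 had 1 site 46 bases before its start, AMOTL2 had 1 site 69 bases before the second of its 2 listed starts, and ACTA2 had 1 site 183 bases before the second of its 2. Within the narrower window of 150 bases before the start, 3 of the 7 genes held the motif, against 8.66% of symbols. The CArG box, searched on both strands with no mismatch allowed, was in 0 of the 7 genes, against 1.6% of symbols. Elements with a mismatch were not searched. A match is a string of letters and not a measured binding site, and a missing match says only that the letters are absent from this window. The 250 bases before the start are given here 5′ to 3′ on the strand of each gene for the 3 genes with the most counts among those with a site, capitals marking the TEAD motif. They lie at chr10:90921088-90921337 (minus strand) for ANKRD1, chr15:39580829-39581078 (plus strand) for THBS1 and chr3:134374448-134374697 (minus strand) for AMOTL2.
ANKRD1: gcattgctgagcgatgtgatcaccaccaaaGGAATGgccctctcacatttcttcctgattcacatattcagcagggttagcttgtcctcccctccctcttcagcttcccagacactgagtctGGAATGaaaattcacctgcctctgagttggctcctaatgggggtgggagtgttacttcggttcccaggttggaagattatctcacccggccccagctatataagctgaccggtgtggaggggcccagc
THBS1: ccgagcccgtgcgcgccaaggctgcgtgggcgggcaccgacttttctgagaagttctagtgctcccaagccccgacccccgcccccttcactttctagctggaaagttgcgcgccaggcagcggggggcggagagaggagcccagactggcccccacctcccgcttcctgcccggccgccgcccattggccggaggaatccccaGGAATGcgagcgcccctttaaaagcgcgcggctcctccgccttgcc
AMOTL2: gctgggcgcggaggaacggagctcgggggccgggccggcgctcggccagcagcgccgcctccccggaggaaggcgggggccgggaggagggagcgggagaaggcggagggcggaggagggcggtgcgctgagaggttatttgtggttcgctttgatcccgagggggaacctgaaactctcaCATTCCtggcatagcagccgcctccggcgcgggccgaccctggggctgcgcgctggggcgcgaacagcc

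Between N2B27 and PXGL, the levels separated for 9 of the 10 genes, each N2B27 library being above each PXGL library. Only ACTA2 overlapped. Such a separation upward was seen for 29.4% of all genes tested. With EPZ-6438 the levels of the 9 tested genes were above those in every PXGL library, against 30.6% of all genes tested. ACTA2, not among the genes tested, also separated, with 3 counts in its lowest EPZ-6438 library and 2 in its highest PXGL library. That gap of 0.094 CPM was smaller than the floor of 3 counts in any library, 0.164 CPM or more. Both shares are printed for scale only, since the genes were selected on their PXGL levels, and both comparisons share the PXGL libraries. The stated rule names PXGL levels only, but results for all 3 groups were known when the genes were chosen. The tests of EPZ-6438 against N2B27, and their median, therefore rest on the assumption that this comparison did not guide the choice. There 2 genes rose (ANKRD1 and TNC), 4 fell (CCN1, THBS1, TAGLN and TPM1) and 3 did not pass the test (AMOTL2, CNN1 and MYL9), by edgeR's quasi-likelihood test with Benjamini-Hochberg adjustment. Over all genes tested 24.7% were called, 14.2% higher and 10.6% lower. The median log2 difference of the 9 tested genes was -0.41, beside 0.01 over all genes. In bulk RNA, fewer cells that express a gene and less RNA per cell cannot be told apart.

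The number of falling genes depended on the libraries in the fit. Without PXGL replicate 1, all 9 tested genes passed, 7 of them lower, and 7 were also lower when the PXGL libraries were left out of the fit. Calls over all genes rose too, to 5770 of 15522 without PXGL replicate 1 and to 5641 of 14566 without the PXGL libraries. The fit of all libraries called 3752 of 15179. Under a test for a change over 1.5-fold, 2 passed, ANKRD1 and TNC, beside 724 of all 15179 genes tested. ANKRD1 and TNC passed under all 16 alternatives run.

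**Figure D1:**
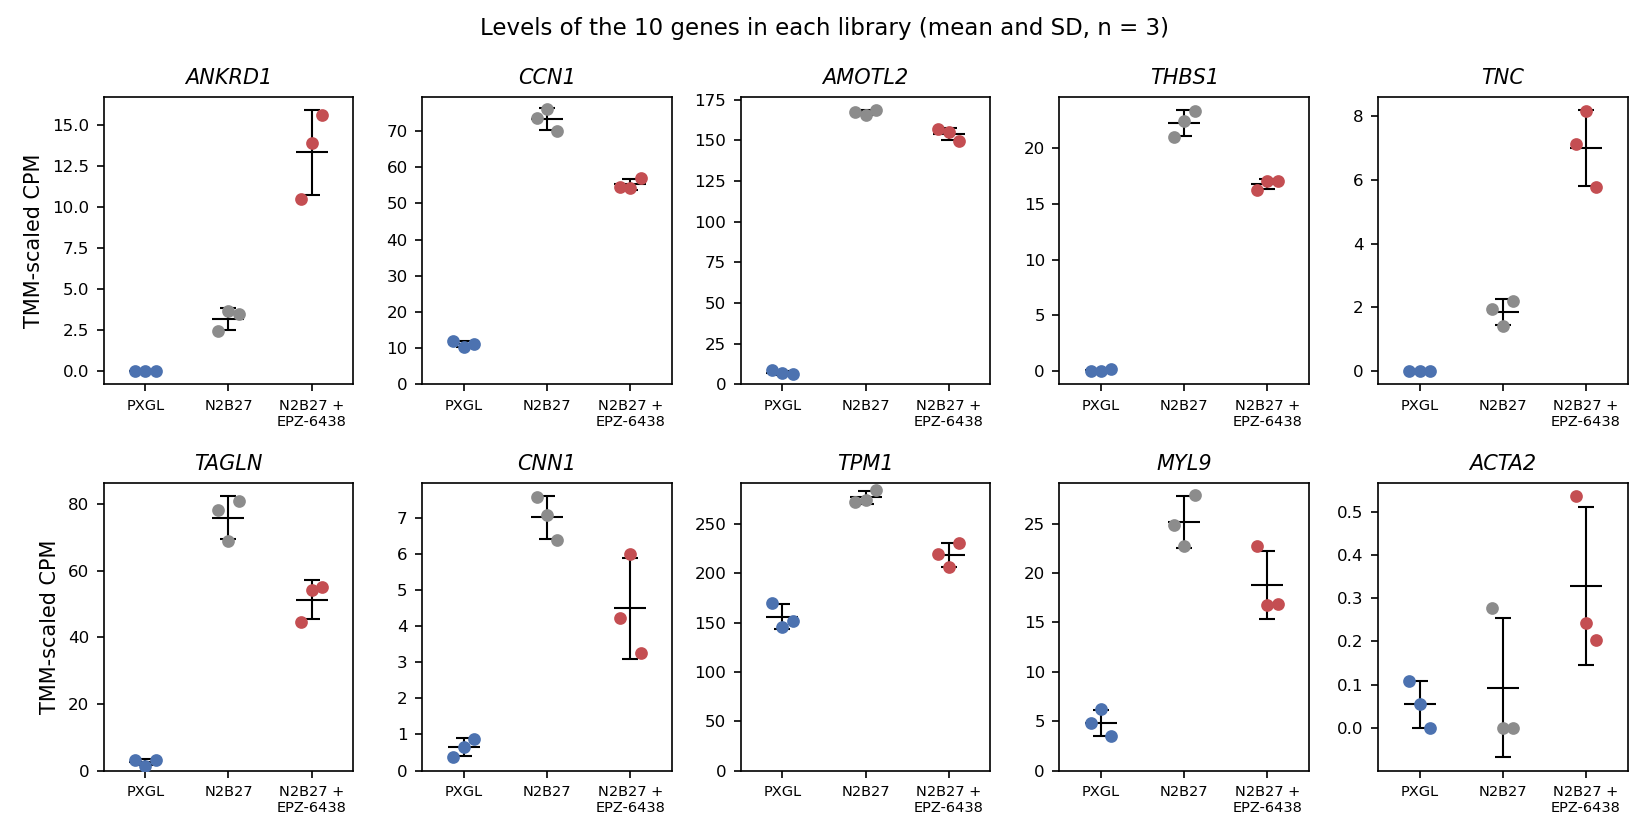
Level of each of the 10 genes in TMM-scaled CPM (linear axis, one scale per gene) in the 3 conditions, with each point 1 library and the bars showing the mean and SD of 3 libraries. ANKRD1 and TNC sit at 0 in PXGL and are highest with EPZ-6438. CCN1, AMOTL2, THBS1, TAGLN, CNN1 and TPM1 are highest in N2B27 with no overlap with the EPZ-6438 libraries. AMOTL2 and CNN1 among them did not pass the test. The share of all genes that separate in this way between N2B27 and EPZ-6438 was not computed.

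Among the YAP targets, ANKRD1 (chr10:90912096-90921276, minus strand, hg38) had no count in any PXGL library, so its level there lay below the group floor of 0.0550 CPM. ANKRD1 encodes a stress-induced ankyrin repeat protein of striated muscle that is also found in the nucleus. In N2B27 its 3 libraries gave 2.44, 3.65 and 3.47 CPM, and with EPZ-6438 they gave 10.5, 13.9 and 15.6 CPM. The lowest EPZ-6438 library was thus above the highest N2B27 library. N2B27 was at least 57.9-fold higher than PXGL and EPZ-6438 at least 243-fold higher, both computed against 3 counts over the PXGL group. From N2B27 to EPZ-6438 ANKRD1 rose by 2.07 ± 0.22 (SE) on the log2 scale, from 3.19 ± 0.656 to 13.4 ± 2.61 CPM (SD, n = 3), a change of 4.19-fold (edgeR adjusted p = 7.1e-06).

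CCN1 (chr1:85580761-85583962, plus strand, listed as CYR61 in GENCODE 29) encodes a secreted integrin ligand and is an immediate YAP target. It was already expressed in PXGL, at 12.0, 10.2 and 11.1 CPM. The N2B27 libraries held 73.5, 76.1 and 70.1 CPM, a ratio of 6.59 to PXGL. With EPZ-6438 they held 54.4, 54.3 and 57.0 CPM. These lay between the other groups without touching either. CCN1 fell by 0.41 ± 0.08 on the log2 scale with EPZ-6438 (edgeR adjusted p = 0.00088, n = 3 and 3), to 4.97 times its PXGL level.

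AMOTL2 (chr3:134355874-134375479, minus strand) encodes an angiomotin that binds YAP at junctions and actin, and it is both a target and an inhibitor of YAP. Its libraries gave 8.49, 6.68 and 6.10 CPM in PXGL. They gave 167, 166 and 169 CPM in N2B27 and 157, 155 and 150 CPM with EPZ-6438. N2B27 was 23.6 times PXGL, the highest ratio among the YAP targets with counts in PXGL. Its replicates were also tight, with an SD of 1.57 CPM around a mean of 167 CPM in N2B27. The EPZ-6438 libraries lay just below those in N2B27. The log2 difference of -0.12 (95% interval -0.28 to 0.04) did not pass (edgeR adjusted p = 0.263, n = 3 and 3), although it passed without PXGL replicate 1 (edgeR adjusted p = 0.0282).

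The matricellular genes encode proteins of the extracellular matrix that modulate adhesion rather than build fibres. THBS1 (chr15:39581079-39599466, plus strand), thrombospondin 1, binds CD47, CD36 and integrins and activates latent TGF-beta. It had 0, 0 and 3 counts in PXGL. Its N2B27 libraries held 21.0, 22.5 and 23.4 CPM and its EPZ-6438 libraries 16.3, 17.1 and 17.1 CPM. The groups did not overlap. N2B27 was 406 times PXGL, with a 95% counting interval of 138 to 1970, and EPZ-6438 was 306 times PXGL (104 to 1486). All 3 PXGL counts came from replicate 3. With EPZ-6438 THBS1 fell by 0.41 ± 0.14 on the log2 scale (edgeR adjusted p = 0.0466, n = 3 and 3). That call was lost whenever any 1 library of N2B27 or of EPZ-6438 was left out, with edgeR adjusted p between 0.0821 and 0.157.

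TNC (chr9:115019578-115118257, minus strand) encodes tenascin C, a matrix glycoprotein of embryonic and wounded tissue that weakens adhesion to fibronectin. It had no count in PXGL, and its N2B27 libraries held 1.95, 1.41 and 2.20 CPM. With EPZ-6438 they held 7.10, 8.14 and 5.76 CPM, all above N2B27. N2B27 was at least 33.8-fold higher than PXGL and EPZ-6438 at least 128-fold higher. The rise with EPZ-6438 was 1.91 ± 0.27 on the log2 scale, or 3.77-fold (edgeR adjusted p = 9.3e-05, n = 3 and 3). ANKRD1 and TNC, the genes at 0 in PXGL, were therefore also those that rose with the inhibitor. THBS1, nearly absent from PXGL too, went the other way.

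Among the actin genes, TAGLN (chr11:117199321-117204782, plus strand) encodes transgelin, a calponin-family protein that crosslinks actin filaments and marks smooth muscle. Its libraries gave 3.01, 1.42 and 3.11 CPM in PXGL, 78.2, 68.9 and 81.1 CPM in N2B27, and 44.6, 54.2 and 55.1 CPM with EPZ-6438. N2B27 was 30.3 times PXGL and EPZ-6438 was 20.5 times PXGL. TAGLN fell by 0.57 ± 0.13 on the log2 scale with EPZ-6438 (edgeR adjusted p = 0.0032, n = 3 and 3). Its exons share 446 bases with PCSK7 on the opposite strand, a gene with 6986 counts over the 9 libraries, and strand was not given, so the split of reads in that stretch is uncertain.

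CNN1 (chr19:11538717-11550323, plus strand) encodes calponin 1, which binds actin and inhibits myosin ATPase in smooth muscle. Its levels were 0.384, 0.657 and 0.888 CPM in PXGL, 7.58, 7.10 and 6.40 CPM in N2B27, and 4.22, 6.02 and 3.25 CPM with EPZ-6438. The 3 groups did not overlap, with N2B27 10.9 times PXGL. The log2 difference with EPZ-6438 of -0.64 (95% interval -1.15 to -0.13) missed the threshold (edgeR adjusted p = 0.0651, n = 3 and 3). It passed when PXGL replicate 1, PXGL replicate 3 or EPZ-6438 replicate 2 was left out, with edgeR adjusted p of 0.0171, 0.0468 and 0.0243.

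TPM1 (chr15:63042632-63071915, plus strand) encodes a tropomyosin that coats actin filaments and sets which proteins can bind them. Its PXGL libraries held 170, 146 and 152 CPM. N2B27 libraries held 273, 274 and 285 CPM and EPZ-6438 libraries 219, 206 and 230 CPM. The ratio of N2B27 to PXGL, 1.78, was the lowest of the 9 separated genes. TPM1 fell by 0.34 ± 0.07 on the log2 scale with EPZ-6438 (edgeR adjusted p = 0.0014, n = 3 and 3). Its exons share 2070 bases with the antisense gene TPM1-AS, which had 130 counts in all 9 libraries.

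MYL9 (chr20:36541484-36551447, plus strand) encodes the regulatory myosin light chain of smooth muscle and nonmuscle cells, phosphorylated by myosin light chain kinase. Its libraries gave 4.77, 6.19 and 3.50 CPM in PXGL, 24.9, 22.7 and 27.9 CPM in N2B27, and 22.8, 16.8 and 16.9 CPM with EPZ-6438. EPZ-6438 replicate 1 lay inside the N2B27 range. N2B27 was 5.23 times PXGL. The log2 difference with EPZ-6438 was -0.42 (95% interval -0.76 to -0.09, edgeR adjusted p = 0.0622, n = 3 and 3). It passed when any 1 PXGL library or EPZ-6438 replicate 1 was left out, with edgeR adjusted p from 0.0173 to 0.0403.

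ACTA2 (chr10:88935074-88991339, minus strand) encodes smooth muscle alpha-actin, the usual marker of smooth muscle cells and myofibroblasts. It was barely detected, with 2, 1 and 0 counts in PXGL, 4, 0 and 0 in N2B27, and 8, 4 and 3 with EPZ-6438. The 15 counts with EPZ-6438 against 4 in N2B27 amounted to 3.54 times the CPM, with counting error (95%) spanning 1.13 to 14.7. Its N2B27 and EPZ-6438 libraries overlapped. Its exons also share 380 bases with FAS and 516 with ACTA2-AS1 on the opposite strand. FAS had 389 counts and ACTA2-AS1 had 3 over the 9 libraries. Strand was not given, so the origin of reads in the shared stretches is uncertain. Without the low-count filter the edgeR adjusted p of ACTA2 was 0.408 (n = 3 and 3). ACTA2 was thus the exception of the set, at or near the floor in every condition.

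Per kilobase of merged exon, the order of the mean levels in N2B27 was CCN1 (29.8 CPM per kilobase), AMOTL2 (27.9), TPM1 (21.5), TAGLN (19.4), MYL9 (8.92), CNN1 and THBS1 (2.43 each), ANKRD1 (1.61), TNC (0.192) and ACTA2 (0.0312). Only CNN1 and THBS1 overlapped in their library ranges among the neighbours in this order. Merged exons pool all listed transcripts of a gene and can exceed the length of the RNA expressed. The order therefore depends on that length, as do the orders per kilobase of the families below. In CPM without division TPM1, with 12876 merged bases, was the highest of the set in N2B27, at a mean of 277 CPM. In PXGL the order was led by TPM1 (12.1), CCN1 (4.53), MYL9 (1.71) and AMOTL2 (1.19). The library ranges of MYL9 and AMOTL2 overlapped there, at 1.24 to 2.19 and 1.02 to 1.42 CPM per kilobase. TAGLN, at 0.363 to 0.793 in PXGL, lay below MYL9 there and above it in N2B27.

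Across the 9 libraries, log2 levels of ANKRD1 and TNC correlated at r = 0.99, and the lowest correlation in the set was 0.72, between TPM1 and TNC. The libraries share their 3 conditions, so these values mainly describe the group means. The 5 other genes with the profile most like the mean of the 9 tested genes were BMPR1A (r = 0.999), SPRY4, EDNRB, COL1A2 and CLIC4. SPRY4, an inhibitor of receptor tyrosine kinase signalling, had a mean of 0.0183 CPM in PXGL, 139 CPM in N2B27 and 113 CPM with EPZ-6438. Its PXGL value lay below the group floor of 0.0550 CPM. BMPR1A, a BMP receptor, had means of 29.01, 128 and 119 CPM. COL1A2, a fibrillar collagen chain, had means of 2.48, 28.3 and 23.3 CPM.

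The paralogs of the 10 genes were described next, family by family. Among the actins, ACTA1, the skeletal muscle actin, rose 34.7-fold from PXGL to N2B27, from a mean of 1.39 to 48.6 CPM (edgeR adjusted p = 1.4e-14, n = 3 and 3). ACTG2, the enteric smooth muscle actin, rose 17.8-fold, from 1.96 to 35.0 CPM (edgeR adjusted p = 3.7e-12, n = 3 and 3). ACTC1, the cardiac actin, had 1 count in PXGL, 152 in N2B27 and 57 with EPZ-6438. The cytoplasmic actins ACTB and ACTG1 rose 1.59-fold and 1.22-fold. Of the muscle actins, then, 3 of 4 were higher in N2B27 and ACTA2 stayed near 0. These coding sequences are closely related, so the division of reads among them depends on the counting, of which the labels say nothing.

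With EPZ-6438, ACTA1 fell 1.48-fold, ACTG2 1.69-fold and ACTC1 2.82-fold (edgeR adjusted p = 0.00025, 0.00037 and 0.0043, n = 3 and 3). ACTB fell 1.14-fold (edgeR adjusted p = 0.0443), a call lost without any 1 library of N2B27 or EPZ-6438. ACTG1 differed by -0.03 on the log2 scale (edgeR adjusted p = 0.787). Per kilobase of exon, the order of the actin levels in N2B27 was ACTB (mean 1033 CPM per kilobase), ACTG1 (858), ACTA1 (32.5), ACTG2 (9.18), ACTC1 (0.755) and ACTA2 (0.0312). No neighbours in that order overlapped in their library ranges.

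**Figure D2:**
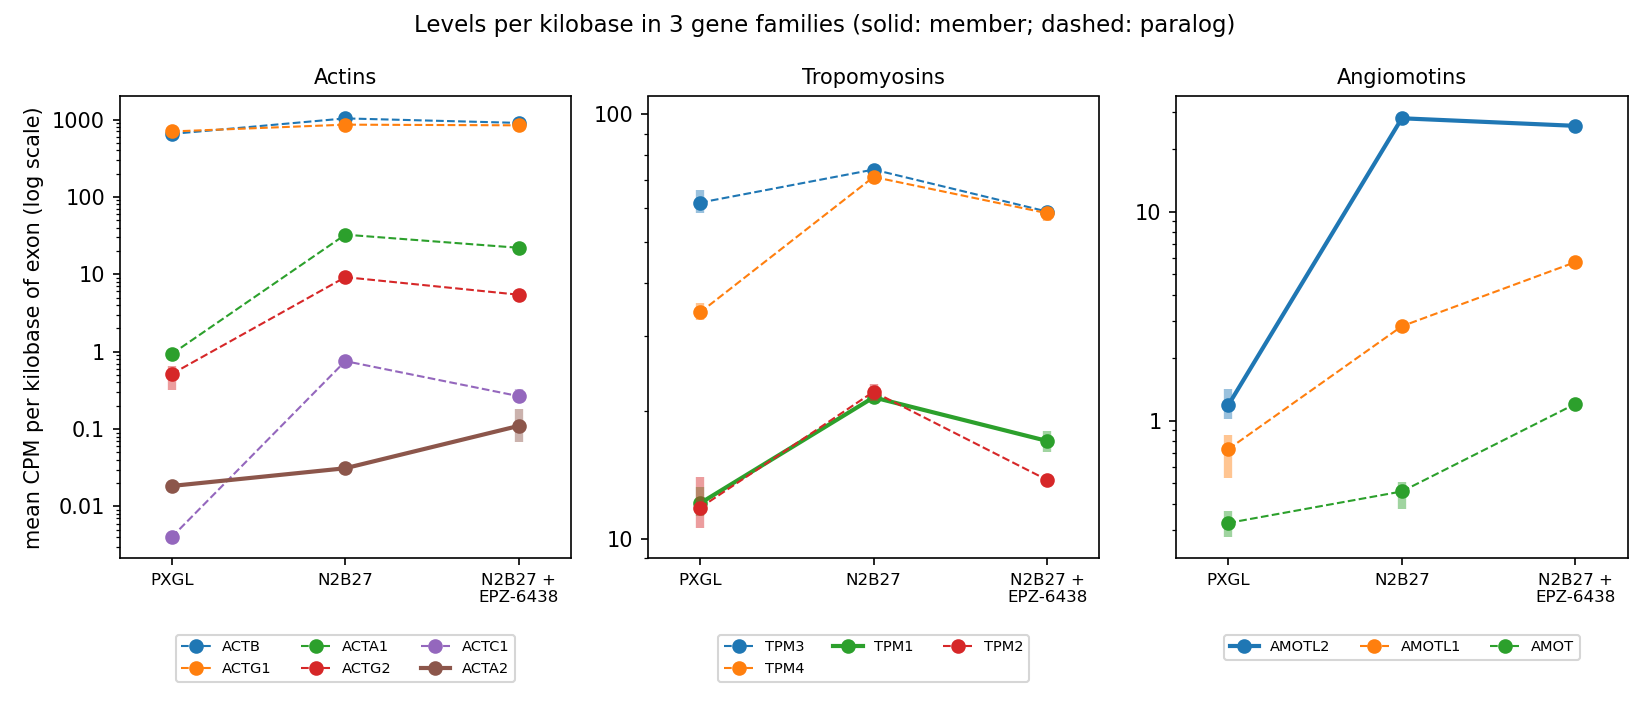
Mean level per kilobase of merged exon (log axis) of the actins, tropomyosins and angiomotins in the 3 conditions; lines join the values of 1 gene, and vertical bars span the lowest and highest of 3 libraries where the lowest is above 0. AMOTL2 rises from 1.19 in PXGL to 27.9 CPM per kilobase in N2B27 and leads its family there, whereas AMOT and AMOTL1 are highest with EPZ-6438 and ACTA2 is the lowest actin in N2B27 and with EPZ-6438.

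The tropomyosins moved as a family. TPM2, TPM3 and TPM4 rose from PXGL to N2B27 by 1.88-fold, 1.20-fold and 2.08-fold, and fell with EPZ-6438 by 1.61-fold, 1.26-fold and 1.22-fold (edgeR adjusted p of 0.0019 or less for each fall, n = 3 and 3). Per kilobase TPM1 and TPM2 had overlapping ranges in PXGL and in N2B27, whereas TPM1 was above TPM2 with EPZ-6438, at 16.0 to 17.9 against 13.6 to 14.1 CPM per kilobase.

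The angiomotins did not. AMOT and AMOTL1, the other members that tether YAP at junctions and filaments, rose with EPZ-6438 by 2.62-fold and 2.03-fold (edgeR adjusted p = 2.7e-05 and 6.0e-06, n = 3 and 3), where AMOTL2 gave the interval that included 0. From PXGL to N2B27 AMOTL1 rose 3.87-fold and AMOT 1.41-fold, and the call for AMOT (edgeR adjusted p = 0.0425) was lost under 11 of 16 alternatives, up to an adjusted p of 0.145 without the fold requirement. AMOTL2 remained the most abundant per kilobase with EPZ-6438, at 25.7 ± 0.625 CPM per kilobase against 5.73 ± 0.332 for AMOTL1 and 1.20 ± 0.0439 for AMOT (SD, n = 3).

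CCN2, the closest relative of CCN1 and likewise a YAP target, rose 3.37-fold in N2B27 and fell 1.40-fold with EPZ-6438 (edgeR adjusted p = 4.8e-09 and 0.0053, n = 3 and 3). CCN3 had 1 count in PXGL, and its log2 difference with EPZ-6438 was 0.95 (edgeR adjusted p = 0.0858). CCN4, CCN5 and CCN6 were below the filter. THBS2, which resembles THBS1 in domain structure, rose 18.2-fold in N2B27 and fell 2.03-fold with EPZ-6438 (edgeR adjusted p = 2.8e-07 and 0.0241), the second call being lost under 5 of 16 alternatives. THBS3 and THBS4 passed in neither comparison, nor did TNXB, the tested relative of TNC. ANKRD23, the tested relative of ANKRD1, fell 1.82-fold in N2B27 (edgeR adjusted p = 0.0335, lost under 8 of 15 alternatives) and had a log2 difference of -0.72 with EPZ-6438 (edgeR adjusted p = 0.175).

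The calponin and transgelin relatives split. CNN2, the calponin of nonmuscle cells, rose 2.67-fold in N2B27 and fell 1.41-fold with EPZ-6438, whereas CNN3 had a log2 difference of 0.19 in N2B27 (edgeR adjusted p = 0.0593) and rose 1.31-fold with EPZ-6438 (edgeR adjusted p = 0.0019, n = 3 and 3). TAGLN2 rose in both, by 1.35-fold and then 1.21-fold. Of the myosin light chains, MYL12B and the essential chain MYL6 rose in N2B27 by 1.34-fold and 1.30-fold. MYL6 fell 1.26-fold with EPZ-6438 (edgeR adjusted p = 0.0458), a call lost under 8 of 16 alternatives. MYL12A passed in neither comparison.

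**Figure D3:**
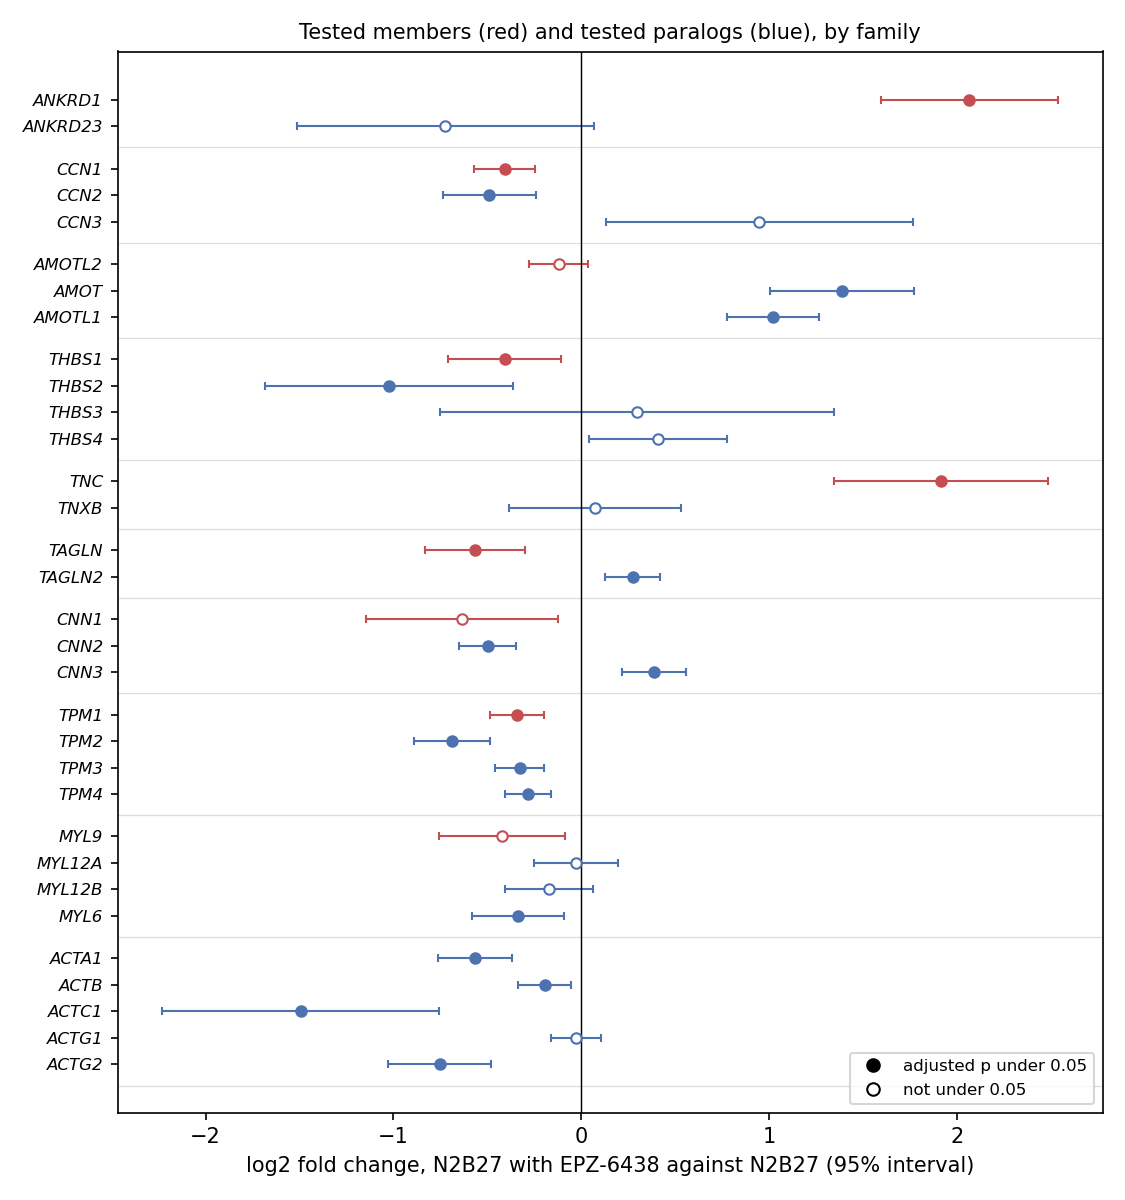
Log2 fold change from N2B27 to N2B27 with EPZ-6438 for the 9 tested genes of the set (red) and their tested paralogs (blue), with 95% intervals from the edgeR fit and filled points for an adjusted p under 0.05. ANKRD1 at 2.07 and TNC at 1.91 stand to the right, AMOT at 1.39 and AMOTL1 at 1.02 lie right of AMOTL2 at -0.12, and the 4 tropomyosins all lie left of 0.

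Genes of the surrounding pathways were taken from 4 lists that leave out the 10 genes but hold some of their paralogs. The lists were chosen with earlier results of these data known, so their counts and medians are a description and not independent support. From PXGL to N2B27, where 27.3% of genes tested rose and 28.7% fell, the list of other YAP-TEAD targets had 12 of 17 tested genes higher, 1 lower and 4 not called, with a median log2 difference of 1.08 beside -0.03 over all genes. MYOF, a membrane repair protein, rose 2.81-fold, CCN2 3.37-fold and IGFBP3, which binds insulin-like growth factors, 42.5-fold, from 0.275 to 12.0 CPM. The list of Hippo kinases, YAP and TEAD had 8 of 19 higher and 4 lower (median 0.17). The 8 became 6 or 7 when any 1 library of N2B27 or EPZ-6438 was left out. The scaffold WWC1 rose 5.68-fold and AMOTL1 3.87-fold, whereas MOB1A, a cofactor of the LATS kinases, fell 1.56-fold. YAP1 itself rose 1.41-fold and WWTR1, which encodes TAZ, 2.44-fold (edgeR adjusted p = 1.0e-05 and 9.0e-07, n = 3 and 3), both named here outside the rule for named genes.

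Among 24 actin filament and contractile genes, 17 were higher and 1 lower (median 0.40). This list repeats the paralogs ACTB, ACTG1, CNN2, CNN3, TAGLN2, TPM2, TPM3, TPM4, MYL6, MYL12A and MYL12B, so it is not separate from the families above. ACTN1, an actin crosslinker of focal adhesions, rose 3.49-fold, ZYX, a tension-sensitive adhesion protein, 2.61-fold and CNN2 2.67-fold. Among 17 integrin and focal adhesion genes, 10 were higher and 5 lower (median 0.54). ITGA1, a collagen receptor chain, rose 40.4-fold, from 0.439 to 18.1 CPM, PXN 2.45-fold and PARVA 3.19-fold. Without PXGL replicate 1, 2 YAP-TEAD targets and 3 actin genes were lower in place of 1 each.

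With EPZ-6438, where 14.2% of genes tested rose and 10.6% fell, the lists differed in their counts. Of the YAP-TEAD targets, 6 of 17 were higher, 3 lower and 8 not called, and the median log2 difference was 0.22 beside 0.01 over all genes. F3, tissue factor, rose 2.11-fold to 101 CPM (edgeR adjusted p = 1.8e-08, n = 3 and 3) and GADD45A, a stress-induced growth arrest gene, 1.97-fold, whereas CCDC80, a secreted matrix protein, fell 1.38-fold. The Hippo list had 3 of 19 higher and 3 lower (median -0.06), near the shares over all genes. In it AMOT and AMOTL1 were up as above and TEAD4 was down 1.31-fold. YAP1 had a log2 difference of -0.13 (edgeR adjusted p = 0.177).

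Of the 24 actin filament and contractile genes, 11 fell with EPZ-6438 and 4 rose, at a median of -0.18. The 11 became 8 or 9 when any 1 library of N2B27 or EPZ-6438 was left out. CNN2 fell 1.41-fold and TPM2 1.61-fold, whereas CAPN2, a calcium-dependent protease of adhesion turnover, rose 3.40-fold from 10.5 to 35.6 CPM. Of the 17 integrin and focal adhesion genes, 8 rose and 0 fell by edgeR (median 0.33). At an unadjusted p under 0.05, 3 were lower by edgeR, and the DESeq2 Wald test called 2 lower after adjustment. ITGB8, the integrin chain that activates latent TGF-beta, rose 9.91-fold from 0.552 to 5.53 CPM. CD47, a thrombospondin receptor, rose 1.96-fold and ITGB5 1.31-fold. Counts in the Hippo list hung on single libraries. Without PXGL replicate 1, 5 Hippo genes were higher and 5 lower, and 2 integrin genes were lower. Without EPZ-6438 replicate 2, 1 Hippo gene was lower. The comparisons with and without EPZ-6438 share the N2B27 libraries, so the opposite signs of the actin medians are given side by side and not as a relation.

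**Figure D4:**
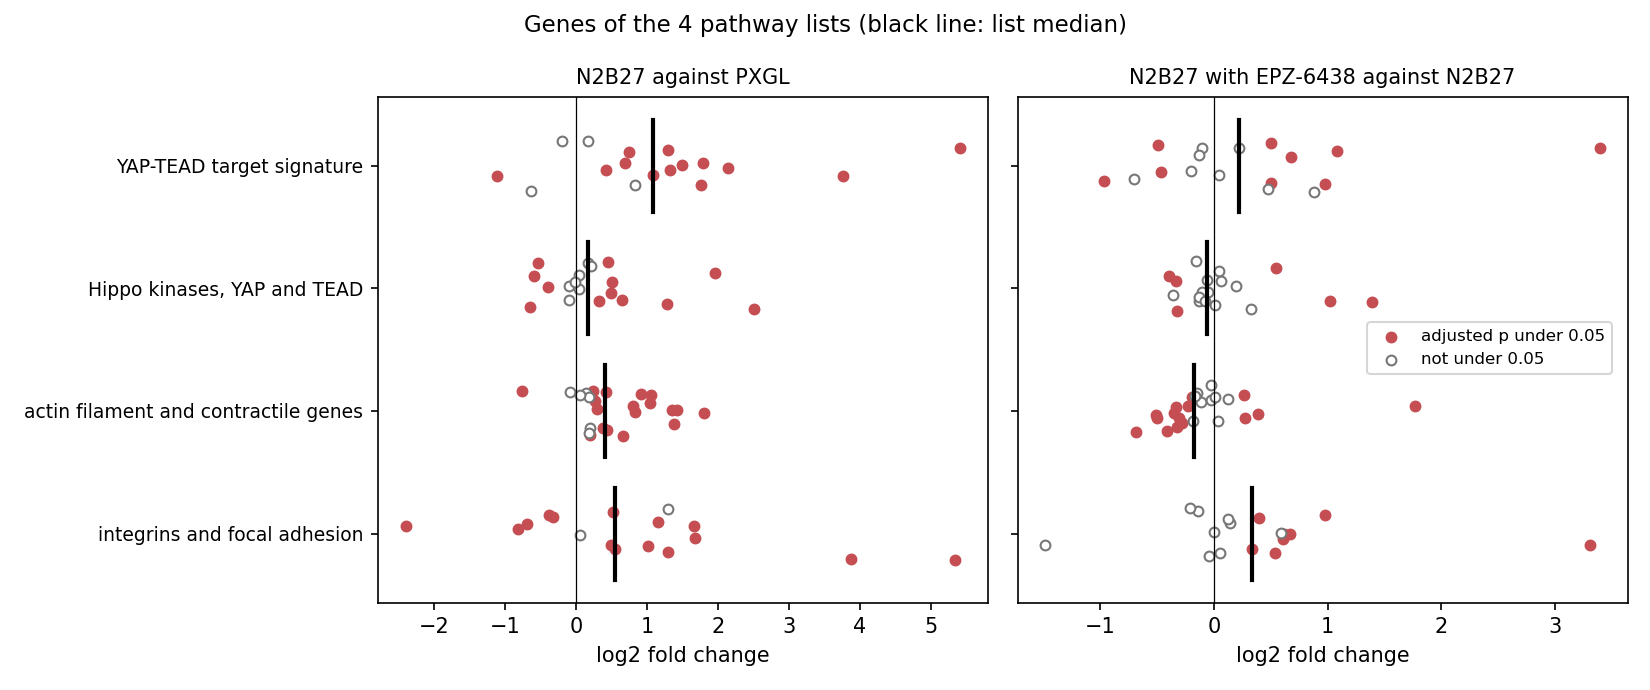
Log2 fold change of each tested gene in the 4 pathway lists, for N2B27 against PXGL (left) and N2B27 with EPZ-6438 against N2B27 (right), filled where the edgeR adjusted p is under 0.05, with a black line at the list median. The YAP-TEAD median stands at 1.08 on the left and 0.22 on the right, and the actin median at 0.40 on the left and -0.18 on the right.

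Markers of other cell types were summed for comparison. The 8 smooth muscle markers, MYH11, MYOCD, LMOD1, SMTN, DES, SYNPO2, ACTG2 and KCNMB1, summed to 33.6 to 38.0 CPM in PXGL, 61.1 to 67.9 CPM in N2B27 and 46.2 to 54.9 CPM with EPZ-6438. ACTG2 alone went from 1.96 to 35.0 CPM between PXGL and N2B27. Of the 8, 3 rose in N2B27 and 2 fell, SMTN from 15.5 to 9.87 CPM and LMOD1 from 1.49 to 0.230 CPM (edgeR adjusted p = 0.00040 and 0.0019, n = 3 and 3). MYH11, the smooth muscle myosin, had a mean of 0.938 CPM in N2B27. The 8 fibroblast and mesenchyme markers summed to 14.7 to 20.03, 165 to 180 and 85.8 to 90.2 CPM. THY1 alone averaged 118 CPM in N2B27. LUM and POSTN had no count in PXGL. COL3A1, DCN and LUM had none in N2B27, and DCN had none with EPZ-6438. The 8 cardiac markers summed to 11.3 to 16.3, 20.2 to 23.3 and 23.6 to 28.2 CPM, with MYH6 and MYH7 at 0 in all 9 libraries. TTN alone averaged 12.8 CPM in N2B27. Of the 4 cardiac markers tested, 2 rose from PXGL to N2B27 and 1 fell. The sum of the 6 endothelial markers stayed between 41.9 and 48.9 CPM throughout, while single members went opposite ways. KDR, a VEGF receptor, rose 16.7-fold from PXGL to N2B27, and VWF and CDH5 fell 2.54-fold and 2.69-fold by the same test. The 8 amnion and trophectoderm markers summed to 12.9 to 15.1, 9.74 to 11.1 and 19.9 to 22.9 CPM, with VTCN1 and CGA at 0. Of the 6 tested, 2 rose from PXGL to N2B27 and 3 fell, while 3 rose and 0 fell with EPZ-6438. From PXGL to N2B27 the mean of ISL1 went from 6.32 to 1.22 CPM and that of KRT7 from 1.10 to 4.95 CPM. The part of such cells in the levels of the 10 genes was not tested.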

How the data were processed

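RNA-seq of 9 H1 libraries was used, in groups taken from the sample titles. Per the labels, RNA was extracted with Trizol and depleted of ribosomal RNA, while the molecule label names polyA RNA, which was not settled here. The authors deposited expected counts, which are estimates and can be fractional, for 40332 symbols. Trim Galore, STAR 2.7.6a, DESeq2 and the hg38 genome are named in the submitters' processing notes. Counting program, annotation and strand setting: not given in the sources used here. TAGLN and TPM1 were the genes of the set with values that were not whole.

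Expected counts were rounded to whole numbers. Levels are CPM on total counts times the TMM factor, and levels per kilobase divide by merged exons of GENCODE 29 (GRCh38). Merged exons pool those of all listed transcripts of a gene, and which transcripts were expressed was not determined. The comparisons used edgeR 4.0.16 in R 4.3.3 (filterByExpr, TMM, robust quasi-likelihood, 1 term per group, all 9 libraries). A gene was called at a Benjamini-Hochberg adjusted p under 0.05 over 15179 genes of 22640 with any count, with no fold threshold. The floor was 3 counts, intervals of ratios to few counts are exact (95%), and both cover counting error only. In simulated data of 14952 genes for EPZ-6438 against N2B27, 74 of 100 changes of 1.5-fold and 93 of 100 of 2-fold were recovered, with 8 false calls. Counts were drawn from the fitted spread, and changes were placed only in genes above a minimum mean count. Far fewer genes changed there than were called in the data, so these are not error rates of the real comparison.

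Within groups, every pair of libraries differed beyond sampling noise (lowest chi-square per degree of freedom 2.57), so each counted as 1 sample. No label calls them separate cultures. The p-values therefore reflect library-to-library spread only, possibly technical. The design text names both triplicate samples and duplicate RNA-seq. The 10 genes and all lists were chosen with earlier results of these data known. Named were the 10 genes, up to 3 called genes with the smallest adjusted p per pathway list and comparison, every tested paralog, and the 5 genes of at least 5 CPM most like the set by Pearson r. Alternatives were DESeq2 1.42.0, its size factors, other filters, a replicate block, a 1.5-fold test, a fit of the compared groups alone and leaving out each library. Results of 1 further gene list are not reported here.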

Additional observations from a re-analysis of the deposited data

How the results depend on the processing

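For EPZ-6438 against N2B27, 3752 genes were called in all, against 724 under the test for a change over 1.5-fold, 5641 with only the 2 compared groups in the fit, and 2762 to 5770 leaving out each library in turn, the highest without PXGL replicate 1. For N2B27 against PXGL the count of 8505 went to 2956 under the 1.5-fold test. Of the 10 genes, 6 were called, against 2 under the 1.5-fold test, and 4 were lower, against 0 under that test, 7 with the 2 groups alone and 3 to 7 leaving out each library. No direction among the 9 tested genes reversed in 16 alternatives. CCN1, TAGLN and TPM1 lost their calls only under the 1.5-fold test, and AMOTL2, CNN1 and MYL9 gained one in 2, 5 and 6 alternatives. Same-numbered libraries did not deviate together (correlations of -0.026 to 0.037 over 9 pairs), so the numbers were not taken as pairs. A replicate block gave 3696 genes and 5 of the 10 called, THBS1 being lost (edgeR adjusted p = 0.0543).

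Pathway counts for EPZ-6438 under the 1.5-fold test became 3 higher and 0 lower for YAP-TEAD targets, 0 lower for Hippo genes, 1 higher and 0 lower for actin genes and 2 higher for integrin genes. With the 2 groups alone, 5 Hippo genes were higher and 5 lower, and 3 integrin genes were lower. The DESeq2 Wald test called 2 integrin genes lower. Leaving out each library gave 2 to 5 Hippo genes higher and 1 to 5 lower, 8 to 15 actin genes lower, and 0 to 2 integrin genes lower. For N2B27 against PXGL the 1.5-fold test gave 3 Hippo genes higher and 0 lower, 9 actin genes higher and 1 integrin gene lower. Leaving out each library gave 6 to 8 Hippo genes higher, 1 to 2 YAP-TEAD targets lower and 1 to 3 actin genes lower. Log2 values that crossed 0 when libraries were left out were those of MYL12A (-0.059 to 0.020), THBS3 (-0.034 to 1.15) and TNXB (-0.0038 to 0.13) with EPZ-6438, and of THBS4 (-0.14 to 0.091) and TNXB (-0.073 to 0.18) in N2B27, none of them called in the fit of all libraries. Causes of these changes were not tested. ACTA2 had 3, 4 and 15 counts per group, below the low-count filter.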
